A study of Mus musculus with 6 samples.

Results

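The genes described are those of the mitochondrial protein import machinery. They were chosen by symbol from the deposited expression table by a rule that uses no measured value: 25 genes named Timm or Tomm with a number, and 11 named partners of the same machinery, 36 genes of 52550 in all. Of these, 35 were above 0 in at least 1 library and 34 reached the mean of 1 FPKM needed for a test. FPKM divides a gene's sequenced fragments by its transcript length and by the size of the library, so it states a level per length within a library, and the number of fragments behind each value is unknown. The 2 genes below that minimum were Tomm20l, a paralogue of the receptor gene Tomm20 that was listed at 0 in every library, and Timm8a2, which was listed at 0 except for 0.0547 FPKM in WT2.

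The libraries were made from the left ventricle of C57BL/6J mice at 12 months of age. WT1, WT2 and WT3 are labelled wild-type, and PKI1, PKI2 and PKI3 are labelled as overexpressing PGC-1α, a transcriptional coactivator known for driving mitochondrial gene programmes. The comparison therefore asks whether genes of the import machinery differ in level between hearts labelled PKI and wild-type hearts. Which promoter, allele or cell type the overexpression rests on is not given in the sources used here, and whether the libraries of a group stem from different animals is not stated in the labels. The p-values below thus cover the spread between libraries, which may be technical.

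Nearly all mitochondrial proteins are encoded in the nucleus, made in the cytosol and imported. Precursors pass the outer membrane through the TOM complex, and sorting and assembly (SAM) complex proteins then insert beta-barrels into that membrane. Small proteins of the intermembrane space are folded by a disulphide relay (MIA), carriers are escorted by small TIM chaperones to the TIM22 translocase, and precursors with a presequence pass through TIM23, are pulled in by an ATP-driven motor and are trimmed by the matrix processing peptidase (MPP). The heart, which depends on oxidative phosphorylation, keeps a large mitochondrial mass that this machinery supplies.

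The gene named by the PKI label was checked first. Ppargc1a, which encodes PGC-1α, was at 14.2, 12.8 and 12.4 FPKM in the WT libraries and at 11.6, 11.8 and 11.4 FPKM in the PKI libraries. It was therefore not higher in any library labelled PKI, and the groups did not overlap. Its log2 change was -0.16 (limma adjusted p = 0.0967), and the exact two-sided permutation test of the 6 values gave p = 0.1, the smallest value that 3 against 3 libraries allow. After scaling by size factors the log2 change was -0.44 (limma adjusted p = 0.00521). All directions below are thus differences of the libraries labelled PKI from those labelled WT.

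Other features of the libraries moved with the groups. Genes encoded by mitochondrial DNA, together with nuclear copies nearly identical to them, held 81.8 to 82.3% of all FPKM in WT and 78.0 to 78.2% in PKI. The median log2 change of the 9907 tested genes was 0.21, and it became -0.02 when each library was divided by a median-of-ratios size factor (0.892 to 0.915 in WT, 1.09 to 1.12 in PKI). Values are therefore given both as deposited and after this scaling. Of 9 cardiomyocyte markers, 1 was called higher and 3 lower as deposited, with summed levels of 16341 to 17224 FPKM in WT and 13362 to 17410 FPKM in PKI. Of 7 fibroblast markers 6 were called higher (sums of 80.7 to 117 FPKM in WT, 218 to 285 FPKM in PKI), and 7 of 7 macrophage markers were called higher (67.9 to 105 FPKM in WT, 207 to 223 FPKM in PKI). After scaling 7 of the 9 cardiomyocyte markers were called lower and 0 higher, and 6 of 7 fibroblast and 6 of 7 macrophage markers higher. Among all tested genes 36.4% were called higher and 2.96% lower as deposited, and 7.82% and 9.18% after scaling. Endothelial markers were called higher in 1 of 5 cases as deposited and lower in 1 of 5 after scaling. Their sums were 59.4 to 63.9 FPKM in WT and 64.8 to 71.9 FPKM in PKI. Smooth muscle and pericyte markers were called higher in 4 of 5 cases as deposited and in 1 of 5 after scaling (111 to 140 FPKM in WT, 174 to 209 FPKM in PKI), red blood cell markers lower in 4 of 4 either way (296 to 425 and 209 to 263 FPKM), and atrial markers higher in 1 of 4 either way (270 to 474 and 664 to 1497 FPKM). The median log2 change of the atrial markers was -1.56, opposite in sign to the change of their sum. Of 3 skeletal muscle markers 1 was tested and called higher either way, with sums of 1.28 to 1.75 FPKM in WT and 6.44 to 9.85 FPKM in PKI, and Myh4 was listed at 0. The part of these shifts in the results below was not tested, and in bulk tissue fewer cells of a type and less RNA per cell cannot be told apart.

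As deposited, 11 of the 34 tested import genes were called higher in PKI (32.4%), at a limma adjusted p under 0.05 over all tested genes. Among all tested genes 36.4% were called higher, so the share of import genes lay near the background. No import gene was called lower, and none had an unadjusted p under 0.05 in that direction, against 2.96% of all tested genes called lower. Every PKI library lay above every WT library for 16 of the 34 genes, beside 51.3% of all tested genes, and no import gene had every PKI library below every WT library, beside 4.53% of all tested genes. The median log2 change of the import genes was 0.20, with a range from -0.07 to 0.55, next to the all-gene median of 0.21.

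After division by the size factors, no import gene was called higher (1 at an unadjusted p under 0.05), beside 7.82% of all tested genes, and 5 were called lower (14.7%), beside 9.18% of all tested genes. The median log2 change was -0.06, and 12 of 34 import genes lay above 0 (35.3%), beside 46.0% of all tested genes. As deposited it was 32 of 34 (94.1%), beside 83.7% of all tested genes. Scaling instead to the FPKM total without mitochondrial transcripts and their nuclear copies left 0 called higher and 1, Timm23, called lower (2.94%), beside 10.3% and 6.09% of all tested genes, with 4 genes in each direction at an unadjusted p under 0.05. With that total the median was 0.02, near the all-gene median of 0.05, and 19 of 34 import genes lay above 0 (55.9%), beside 59.6% of all tested genes. The count of 11 also fell when a library was left out, to 6, 3 and 3 without WT1, WT2 and WT3 and to 2, 7 and 2 without PKI1, PKI2 and PKI3. Over these 6 fits Tomm22 and Timm10 were called in 6, Tomm6, Timm8a1 and Timm10b in 2, Tomm20, Chchd4, Gfer and Timm17a in 1, and Tomm34 and Pmpcb in 0.

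**Figure D1:**
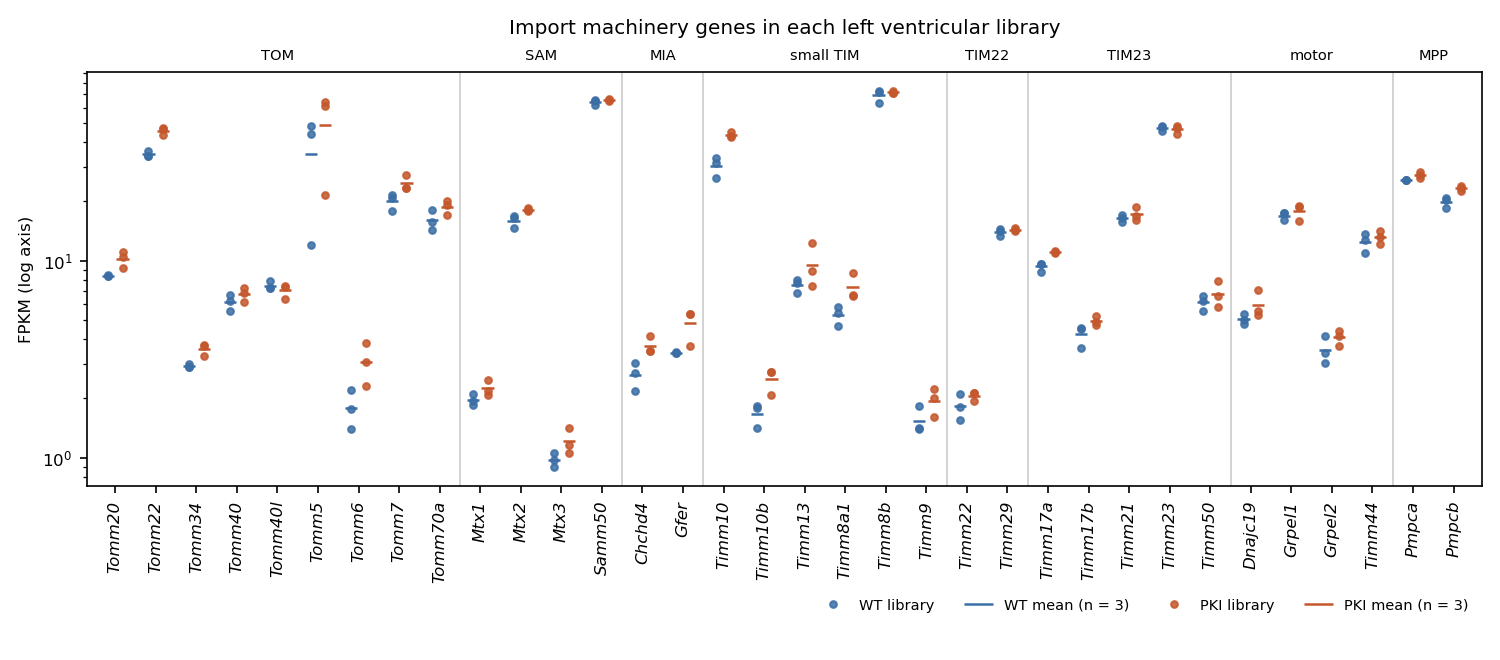
FPKM of the 34 tested import genes (log axis) in each WT (blue) and PKI (orange) library, with the mean of the 3 libraries of each group as a bar, ordered by complex. Tomm22 and Timm10 are among the 16 genes with every PKI library above every WT library, which held for 51.3% of all tested genes. The points of Tomm5 are spread from 12.0 to 64.0 FPKM across both groups.

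The range of levels was wide. The highest mean levels were those of Timm8b, at 69.2 ± 5.0 FPKM in WT (SD, n = 3) and 71.6 ± 1.24 FPKM in PKI, and of Samm50, at 63.9 ± 1.80 and 65.5 ± 0.610 FPKM. The libraries of these 2 genes overlapped in WT and did not overlap in PKI. Timm23 followed at 47.0 ± 1.41 FPKM in WT and 46.7 ± 2.29 FPKM in PKI, and the lowest tested gene was Mtx3, a metaxin, at 0.970 ± 0.0765 and 1.21 ± 0.188 FPKM. Most import genes were as reproducible as other genes, with a median within-group SD of 0.11 on the log2 scale, equal to that of all tested genes.

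The promoters of 4 import genes are shown. Tomm22 and Timm10 had the smallest p-values among the import genes as deposited, and Timm23 and Samm50 the smallest after size-factor scaling. Tomm22 and Timm10 were not called after scaling, and Timm23 and Samm50 were not called as deposited. The planned rule, to show genes whose call held after scaling, selected no gene. The genes shown were chosen after their values were seen. Each sequence is the 250 bases before the transcription start in RefSeq (GRCm38.p6), written 5′ to 3′ on the gene's strand, with capitals on the matches to the 7 motifs searched on both strands. The windows are chr15:79670618-79670867 (plus strand) for Tomm22, chr2:84826771-84827020 (plus) for Timm10, chr14:32201892-32202141 (minus) for Timm23 and chr15:84191990-84192239 (plus) for Samm50.
Tomm22: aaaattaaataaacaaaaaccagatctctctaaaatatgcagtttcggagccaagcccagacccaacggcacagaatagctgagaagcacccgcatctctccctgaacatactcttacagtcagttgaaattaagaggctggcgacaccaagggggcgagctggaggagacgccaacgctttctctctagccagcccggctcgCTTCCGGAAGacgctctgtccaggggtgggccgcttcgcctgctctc
Timm10: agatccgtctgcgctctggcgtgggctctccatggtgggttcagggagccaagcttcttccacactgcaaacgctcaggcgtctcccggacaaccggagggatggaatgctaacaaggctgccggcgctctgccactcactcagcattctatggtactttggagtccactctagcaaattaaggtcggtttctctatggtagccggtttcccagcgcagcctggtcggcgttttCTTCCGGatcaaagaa
Timm23: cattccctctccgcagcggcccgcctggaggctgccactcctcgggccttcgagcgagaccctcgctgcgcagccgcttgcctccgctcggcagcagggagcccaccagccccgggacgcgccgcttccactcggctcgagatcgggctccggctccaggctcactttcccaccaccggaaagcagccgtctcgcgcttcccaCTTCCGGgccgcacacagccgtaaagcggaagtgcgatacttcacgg
Samm50: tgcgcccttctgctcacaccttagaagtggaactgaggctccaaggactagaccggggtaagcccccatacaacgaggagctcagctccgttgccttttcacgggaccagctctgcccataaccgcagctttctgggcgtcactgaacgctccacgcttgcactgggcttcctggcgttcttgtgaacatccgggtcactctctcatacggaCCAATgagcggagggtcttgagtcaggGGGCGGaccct
The capitals in Tomm22, Timm10 and Timm23 mark the ETS motif CCGGAAG or its other strand CTTCCGG, the core bound by GABPA (NRF-2), a factor known for nuclear genes of mitochondria. It begins 47 and 44 bases before the start in Tomm22, where both strands match in overlapping letters, 16 bases before it in Timm10 and 47 bases before it in Timm23. Samm50 lacked these letters in its window and held an NF-Y motif CCAAT 38 bases and an SP and KLF motif GGGCGG 11 bases before the start.

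Of the 36 import genes, 32 had a promoter in the RefSeq table, and Tomm40l, Tomm7, Timm21 and Grpel2 did not match. The 32 include Tomm20l and Timm8a2, which were not tested for a change. Shares of import genes and of tested genes below count genes, and shares of all promoters count promoters. The ETS motif was in the window of 14 of 32 import genes (43.8%), compared with 16.5% of the 7195 tested genes with a window and 6.91% of all 32851 promoters. These were Tomm22, Tomm34, Tomm70a, Mtx1, Mtx2, Mtx3, Timm10, Timm8a2, Timm8b, Timm29, Timm23, Grpel1, Pmpca and Pmpcb. Genes with the motif were thus found among those called higher, those called lower after scaling and those not called. The NRF1 core GCGCATGC, which reads GCATGCGC on the other strand, was in 2 of 32 windows, Timm13 and Grpel1, against 5.43% of tested genes with a window and 2.26% of all promoters. The motif AAGGTCA, which reads TGACCTT on the other strand, of the oestrogen-related receptors, nuclear receptors that PGC-1α coactivates, was in 1 of 32, Timm8b, against 3.32% and 4.08%. The SP and KLF motif GGGCGG, which reads CCGCCC on the other strand, was in 19 of 32, against 65.9% and 32.7%, the E-box CACGTG in 5 against 10.5% and 6.02%, and the NF-Y motif CCAAT, which reads ATTGG on the other strand, in 10 against 40.1% and 33.8%. The YY1 motif AAGATGGC, which reads GCCATCTT on the other strand, was in none, against 2.50% and 1.56%. A match describes letters in a window and was not tested as a site.

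The TOM list holds genes of the TOM complex, the entry gate of the outer membrane, with paralogues and the cytosolic co-chaperone Tomm34. Of its 9 tested genes 4 (44.4%) were called higher as deposited, beside 36.4% of all tested genes. After scaling 0 were called higher and 1, Tomm40l, lower, beside 7.82% and 9.18% of all tested genes. Tomm22, the central receptor that also holds the complex together, lies at chr15:79670861-79673400 (GRCm38, plus strand). It was at 34.1, 33.9 and 36.2 FPKM in WT and at 47.1, 46.6 and 43.3 FPKM in PKI. The PKI libraries all lay well above the WT libraries, by 1.32-fold in the mean. Its log2 change was 0.39 (SE 0.06, limma adjusted p = 0.00469), it was called in all 6 fits that left a library out, and after scaling it was 0.09 (limma adjusted p = 0.355).

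Tomm20, the receptor for presequences (chr8:126930667-126945844, minus strand), was at 8.33, 8.39 and 8.42 FPKM in WT and 11.1, 9.16 and 10.5 FPKM in PKI. The WT libraries were nearly identical, and all PKI libraries were above them with a wider spread. The log2 change was 0.26 (SE 0.08, limma adjusted p = 0.0384), and the sign turned after scaling (-0.01, limma adjusted p = 0.940). Tomm70a, the receptor for carrier precursors delivered by cytosolic chaperones, was at 16.1 ± 1.91 FPKM in WT and 18.8 ± 1.51 FPKM in PKI (SD, n = 3), with overlapping groups and a log2 change of 0.21 (limma adjusted p = 0.125; -0.07 after scaling). Tomm34, a cytosolic co-chaperone of import, was at 2.90, 3.0 and 2.89 FPKM in WT and 3.69, 3.75 and 3.27 FPKM in PKI. Its groups did not overlap and its log2 change was 0.22 (limma adjusted p = 0.0474), which became -0.01 after scaling.

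Tomm40, the beta-barrel channel through which precursors cross, was at 6.27, 6.67 and 5.58 FPKM in WT and 7.24, 6.17 and 6.82 FPKM in PKI. The groups overlapped, the log2 change was 0.11 (95% interval -0.09 to 0.32, limma adjusted p = 0.331), and after scaling it was -0.15. Its paralogue Tomm40l was at 7.23, 7.27 and 7.86 FPKM in WT and 7.36, 6.41 and 7.47 FPKM in PKI, a level similar to that of Tomm40 in this tissue. As deposited the Tomm40l groups overlapped (log2 change -0.07, limma adjusted p = 0.510), and after scaling Tomm40l fell (log2 change -0.33, limma adjusted p = 0.0364). Its exons share 3304 bases with Nr1i3 on the opposite strand, and the library kit does not mark strand, so reads of overlapping genes cannot be told apart. Nr1i3 was listed at 0.006 FPKM in WT and 0.004 FPKM in PKI.

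The small subunits Tomm5, Tomm6 and Tomm7 stabilise the channel. Tomm6 was at 1.39, 2.21 and 1.76 FPKM in WT and 3.06, 2.32 and 3.81 FPKM in PKI, so the highest WT library lay just under the lowest PKI library. Its log2 change was 0.54 (SE 0.16, limma adjusted p = 0.0346), and 0.33 after scaling (limma adjusted p = 0.225). Tomm6 shares 859 exon bases with the predicted gene Gm21981 on the same strand, which was at 2.40 and 2.78 FPKM, and the split of reads between both genes is unknown. Tomm7 was at 17.9, 21.7 and 20.9 FPKM in WT and 27.3, 23.5 and 23.5 FPKM in PKI, without overlap, and just missed the threshold (log2 change 0.29, limma adjusted p = 0.0513; 0.00 after scaling).

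Tomm5 stood apart from every other import gene by its spread. It was at 48.1, 12.0 and 44.0 FPKM in WT and at 21.5, 60.9 and 64.0 FPKM in PKI. WT2 and PKI1 were low and the other libraries high, by up to 4.01-fold within WT and 2.97-fold within PKI. The within-group SD was 0.97 on the log2 scale, larger than that of 99.7% of tested genes, and of the 1127 genes averaging 20 FPKM or more only 5 had a larger one. The log2 change was 0.55 (SE 0.60, 95% interval -0.85 to 1.96, limma adjusted p = 0.474), and without WT2 it was -0.07. The reference annotation lists no gene whose exons overlap Tomm5 (chr4:45105208-45108114, minus strand).

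The SAM complex had 0 of 4 genes called higher and 0 called lower as deposited, beside 36.4% and 2.96% of all tested genes. At an unadjusted p under 0.05 there was 1, Mtx2. Samm50, the beta-barrel core that inserts other beta-barrels (chr15:84192241-84217267, plus strand), was at 61.9, 65.2 and 64.6 FPKM in WT and 65.0, 66.2 and 65.5 FPKM in PKI. The groups overlapped within a narrow range, and only 1.6% of tested genes had a smaller within-group SD. As deposited the log2 change was 0.04 (95% interval -0.09 to 0.16, limma adjusted p = 0.597). After scaling Samm50 fell by 0.26 on the log2 scale (limma adjusted p = 0.0209), relative to an all-gene median of -0.02.

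The metaxins are the cytosolic face of the same complex. Mtx2 was at 16.9, 14.6 and 16.4 FPKM in WT and 18.2, 18.5 and 18 FPKM in PKI, and all PKI libraries lay above all WT libraries. Its log2 change of 0.18 did not pass the test (limma adjusted p = 0.0776), and its sign turned after scaling (-0.10). Mtx1 and Mtx3 had log2 changes of 0.13 and 0.16 (limma adjusted p = 0.227 and 0.169). Mtx1 shares 318 exon bases with Thbs3 on the opposite strand, which was at 0.456 FPKM in WT and 1.55 FPKM in PKI.

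Both genes of the disulphide relay were called higher as deposited, beside 36.4% of all tested genes, and neither after scaling. Chchd4, the oxidoreductase that traps and oxidises incoming cysteine-rich proteins (also known as Mia40), was at 3.02, 2.19 and 2.68 FPKM in WT and 3.46, 4.15 and 3.48 FPKM in PKI. The groups did not overlap, the ratio of means was 1.41 and the log2 change was 0.38 (SE 0.11, limma adjusted p = 0.0311; 0.15 after scaling, limma adjusted p = 0.378). Gfer, the sulfhydryl oxidase that reoxidises Chchd4, was at 3.38, 3.43 and 3.39 FPKM in WT and 5.35, 3.70 and 5.36 FPKM in PKI. PKI2 lay close to the WT libraries and the other PKI libraries far above, with a log2 change of 0.38 (SE 0.12, limma adjusted p = 0.0441; 0.15 after scaling, limma adjusted p = 0.484). Each of these calls was held in 1 of the 6 fits that left a library out.

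The small TIM chaperones are ring-forming proteins that carry hydrophobic precursors across the intermembrane space. As deposited 3 of 6 tested genes (50.0%) were called higher, beside 36.4% of all tested genes. After scaling 0 were called higher and 0 lower, beside 7.82% and 9.18% of all tested genes. Timm10 (chr2:84826997-84830213, plus strand) was at 31.2, 26.2 and 33.3 FPKM in WT and 42.8, 42.6 and 44.9 FPKM in PKI. The PKI libraries were tightly grouped and all above WT, by 1.44-fold in the mean. The log2 change was 0.51 (SE 0.09, limma adjusted p = 0.00674), and Timm10 was called in all 6 fits that left a library out. After scaling it was 0.22 (limma adjusted p = 0.159), which was still among the higher values of the import genes.

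Timm10b, which belongs to the small TIM group bound to TIM22, was at 1.41, 1.78 and 1.82 FPKM in WT and 2.73, 2.09 and 2.71 FPKM in PKI, and rose without overlap (log2 change 0.39, limma adjusted p = 0.0259; 0.19 after scaling). It shares 277 exon bases with Arfip2 on the opposite strand, at 1.38 and 1.62 FPKM. Timm8a1, the mouse counterpart of the gene mutated in deafness-dystonia syndrome, was at 5.84, 4.66 and 5.41 FPKM in WT and 8.69, 6.60 and 6.69 FPKM in PKI. It rose without overlap between the groups (log2 change 0.40, limma adjusted p = 0.0360; 0.14 after scaling). Timm9, the ring partner of Timm10, had a log2 change of 0.21 (limma adjusted p = 0.160), and Timm13, the ring partner of Timm8a1 and Timm8b, one of 0.28 (limma adjusted p = 0.198). Timm8b, the most abundant import gene, was at 63.5, 72.5 and 71.7 FPKM in WT and 70.9, 73.0 and 70.8 FPKM in PKI, and the groups overlapped (log2 change 0.05, limma adjusted p = 0.564; -0.24 after scaling, limma adjusted p = 0.0610).

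At the inner membrane and in the matrix, all 13 tested genes of TIM22, TIM23, the motor and MPP had a log2 change below 0 after size-factor scaling. Among all tested genes 46.0% lay above 0 there. The pooling of these 4 complexes was not planned. With the same scaling 3 of 4 SAM genes, 5 of 9 TOM genes, 1 of 6 small TIM genes and 0 of 2 MIA genes lay below 0. Of the 31 tested neighbouring genes described below, 22 did. As deposited 2 of the 13 were called higher, beside 36.4% of all tested genes. With the total without mitochondrial transcripts Timm17a (0.03), Timm17b, Dnajc19 and Pmpcb (0.02 each) lay above 0. In TIM22, the translocase of metabolite carriers, neither gene was called as deposited. Timm22, its channel, was at 1.56, 2.11 and 1.80 FPKM in WT and 1.93, 2.12 and 2.13 FPKM in PKI (log2 change 0.12, limma adjusted p = 0.317; -0.08 after scaling). Timm29 was at 14.5, 14.1 and 13.4 FPKM in WT and 14.3, 14.6 and 14.1 FPKM in PKI, with overlap and a log2 change of 0.03. After scaling Timm29 fell by 0.25 on the log2 scale (limma adjusted p = 0.0255).

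In the TIM23 translocase, 1 of 5 genes was called higher as deposited, beside 36.4% of all tested genes. Timm23, the channel subunit (chr14:32180162-32201898, minus strand), was at 45.4, 47.6 and 48.1 FPKM in WT and 48.5, 44.1 and 47.5 FPKM in PKI. The groups lay on top of each other, with a log2 change of -0.01 as deposited (95% interval -0.16 to 0.13, limma adjusted p = 0.887). Since the median gene stood at 0.21, the same values gave a fall of Timm23 under both scalings, by 0.30 with size factors (limma adjusted p = 0.0233) and by 0.22 with the total without mitochondrial transcripts (limma adjusted p = 0.0459).

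Timm17a, a regulated partner of the channel that is replaced by Timm17b in other copies of the complex, was at 9.66, 8.76 and 9.66 FPKM in WT and 11.2, 11 and 11.1 FPKM in PKI. It rose by 0.23 on the log2 scale as deposited (SE 0.06, limma adjusted p = 0.0315), without overlap, and stood at -0.05 after scaling. Timm17b did not pass the test (log2 change 0.19, limma adjusted p = 0.137). Timm50, the receptor facing the intermembrane space, was at 6.28, 6.65 and 5.57 FPKM in WT and 7.92, 5.81 and 6.59 FPKM in PKI, with overlap (log2 change 0.11, limma adjusted p = 0.445; -0.15 after scaling). Timm21, which links TIM23 to TOM and to the respiratory chain, had a log2 change of 0.06 (limma adjusted p = 0.523; -0.22 after scaling, limma adjusted p = 0.0738).

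None of the 4 motor genes passed the test in either direction, as deposited or scaled, and none had an unadjusted p under 0.05 as deposited. Among all tested genes 36.4% were called higher and 2.96% lower as deposited, and 7.82% and 9.18% after size-factor scaling. Dnajc19, the J-protein of the motor, whose human counterpart is mutated in a dilated cardiomyopathy with ataxia, was at 5.36, 4.77 and 5.0 FPKM in WT and 7.11, 5.57 and 5.29 FPKM in PKI. Only PKI1 stood clearly above WT, and the log2 change was 0.20 (limma adjusted p = 0.165; -0.05 after scaling). The deposited table also lists a pseudogene, Dnajc19-ps, at 2.22 to 3.24 FPKM, and the split of reads between both genes is unknown. Dnajc19 also shares 178 exon bases with Fxr1 on the opposite strand, which was at 17.4 FPKM in WT and 18.4 FPKM in PKI. Grpel1 shares 411 exon bases with Tada2b on the opposite strand, at 3.47 and 4.12 FPKM. Reads from these shared bases cannot be told apart either. Timm44, which anchors the motor at the channel, and the nucleotide exchange factors Grpel1 and Grpel2 had log2 changes of 0.07, 0.07 and 0.17 (limma adjusted p = 0.546, 0.493 and 0.245), all below 0 after scaling.

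MPP cuts presequences in the matrix, and 1 of its 2 subunits was called higher as deposited, beside 36.4% of all tested genes. Pmpcb, the catalytic subunit, was at 20.3, 18.6 and 20.9 FPKM in WT and 23.5, 24.1 and 22.6 FPKM in PKI, and rose as deposited (log2 change 0.22, SE 0.07, limma adjusted p = 0.0359; -0.06 after scaling). Pmpca, which recognises the substrate, was at 25.8, 25.8 and 25.7 FPKM in WT and 26.4, 28.4 and 27.2 FPKM in PKI. Its groups did not overlap but the shift was small (log2 change 0.08, limma adjusted p = 0.286), and after scaling it fell by 0.21 (limma adjusted p = 0.0440). Pmpca shares 874 exon bases with Inpp5e on the opposite strand, at 4.2 and 4.31 FPKM.

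**Figure D2:**
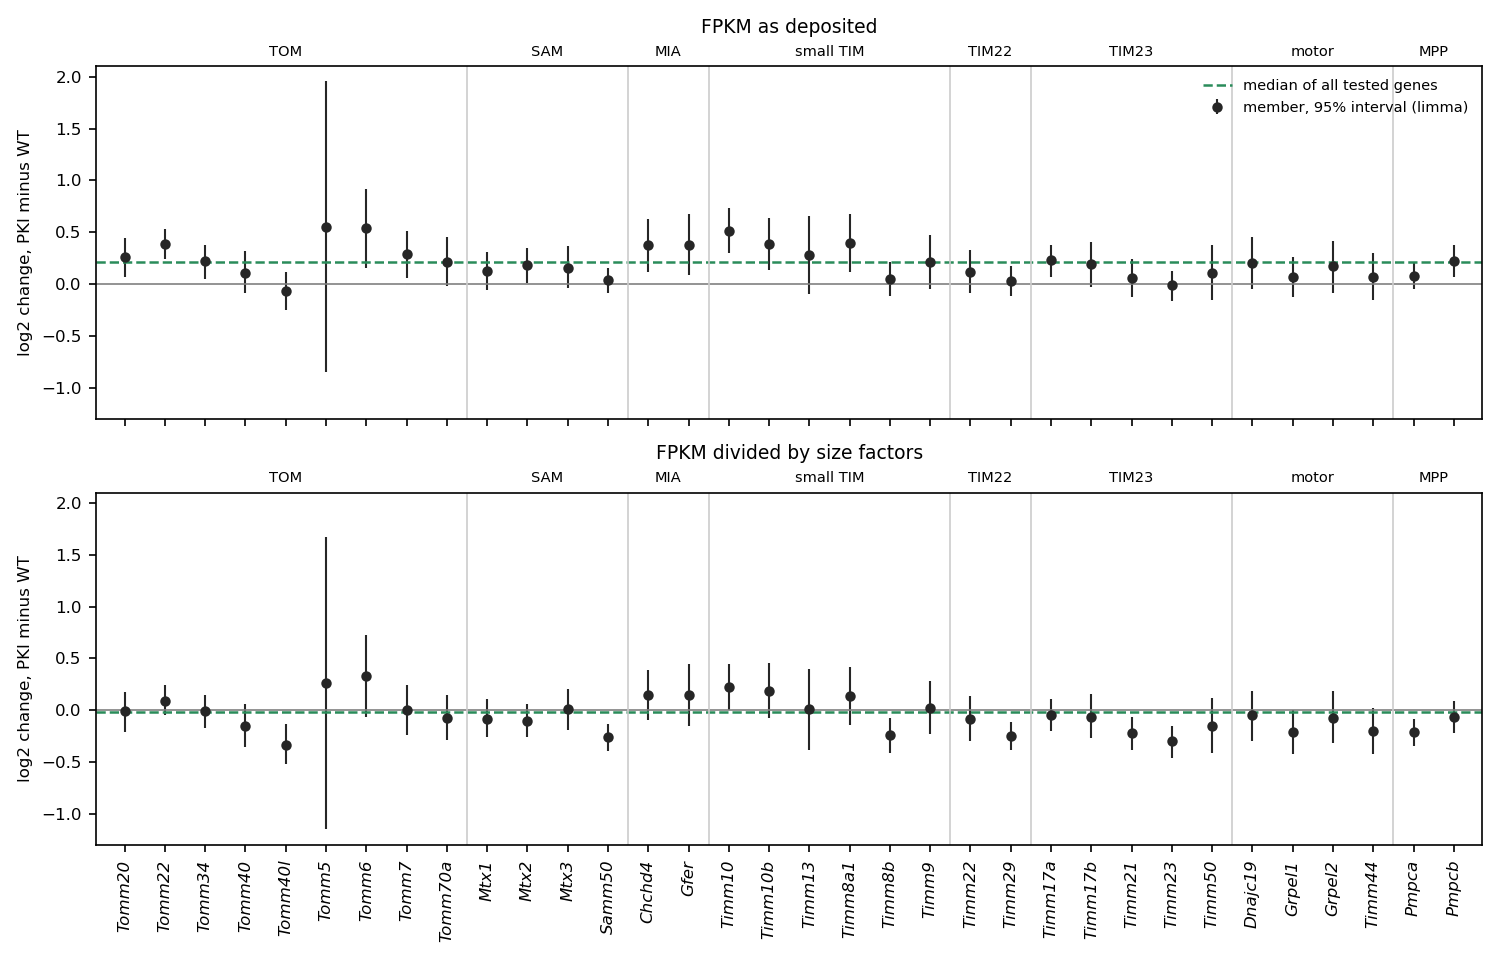
Log2 change (PKI minus WT, on log2(FPKM + 1)) of each tested import gene with its 95% interval from limma, as deposited (top) and after size-factor scaling (bottom), with the median of all tested genes as a dashed line at 0.21 and -0.02. As deposited most points lie around the dashed line, and after size-factor scaling, where 46.0% of all tested genes lie above 0, 12 of the 34 lie above 0 and none of these belongs to TIM22, TIM23, the motor or MPP. With the total without mitochondrial transcripts, which is not drawn, 19 of the 34 lie above 0.

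Shares of the import genes' summed FPKM do not depend on the scaling of a library, and they compare summed transcript levels, not complexes. The sums weigh genes by level, so a share can rest mainly on 1 gene. In WT Samm50 averaged 63.9 FPKM, beside SAM sums of 81.9 to 83.8 FPKM. Timm23 averaged 47.0 FPKM beside TIM23 sums of 82.4 to 84.3 FPKM, and Timm8b 69.2 FPKM beside small TIM sums of 112 to 122 FPKM. In PKI the small TIM sums were 133 to 139 FPKM. There Timm8b averaged 71.6 FPKM, while Timm10 went from 30.2 FPKM in WT to 43.4 FPKM in PKI. Tomm22, the highest gene of the TOM list beside Tomm5, went from 34.7 FPKM in WT to 45.7 FPKM in PKI. Tomm5 was left out because its spread would decide the TOM share. TOM made up 20.1% ± 0.199 of the sum in WT (SD, n = 3, highest 20.4%) and 22.3, 21.9 and 21.6% in PKI, and MIA made up 1.33, 1.17 and 1.22% in WT and 1.59, 1.45 and 1.62% in PKI. Both shares were above WT in every PKI library, as was that of the small TIM chaperones by a narrow margin (23.3, 23.7 and 24.5% in WT, 24.5, 24.7 and 25.6% in PKI). The TIM23 share was below WT in every PKI library (17.3, 17.2 and 17.0% against 16.1, 15.7 and 15.8%). The SAM share was below as well (17.1, 17.3 and 16.9% against 15.6, 16.3 and 16%). The TIM22, motor and MPP shares overlapped. With Tomm5 included, the TOM share overlapped (25.4% ± 2.69 in WT and 28.3% ± 2.66 in PKI, SD, n = 3), the small TIM share overlapped too, and the SAM, TIM23 and TIM22 shares lay below WT and the MIA share above it. Shares of a whole move against each other, and no p-value is attached to them.

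**Figure D3:**
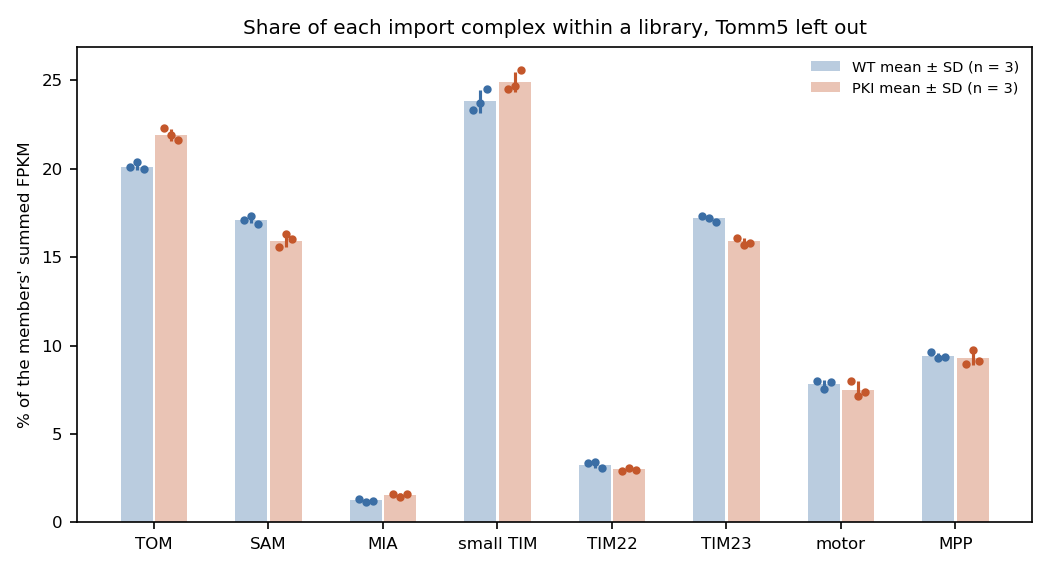
Share of each complex in the summed FPKM of the import genes (% of the sum, Tomm5 left out) in each library, with bars for the mean and lines for the SD of 3 WT (blue) and 3 PKI (orange) libraries. The TOM and MIA points are higher in PKI and the SAM and TIM23 points lower, while the motor and MPP points overlap.

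Ratios of partner genes in the same library also do not change with scaling. Across 11 pairs, the exact two-sided permutation test could not go below p = 0.1, and no pair passed after adjustment over the 11 pairs (smallest adjusted p = 0.733). Only Pmpca over Pmpcb separated the groups, at 1.27, 1.39 and 1.23 in WT and 1.12, 1.18 and 1.2 in PKI (log2 difference of -0.15, exact permutation p = 0.1; -0.10 to -0.19 with a library left out). The ratio of Timm8a1 to Timm8b, alternative partners of Timm13, was 0.0920, 0.0643 and 0.0755 in WT and 0.123, 0.0904 and 0.0945 in PKI, a log2 difference of 0.41 with overlapping groups (exact permutation p = 0.2), which was 0.27 without PKI1. The ratio of Tomm40l to Tomm40 was 1.15, 1.09 and 1.41 in WT and 1.02, 1.04 and 1.1 in PKI, a log2 difference of -0.20 (exact permutation p = 0.2), which was -0.09 without WT3. The Timm17a to Timm17b ratio was 2.15, 2.43 and 2.11 in WT and 2.31, 2.11 and 2.35 in PKI, a log2 difference of 0.02 (exact permutation p = 1.0; -0.02 to 0.08 with a library left out). Timm17a was thus the more abundant form per length in every library.

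**Figure D4:**
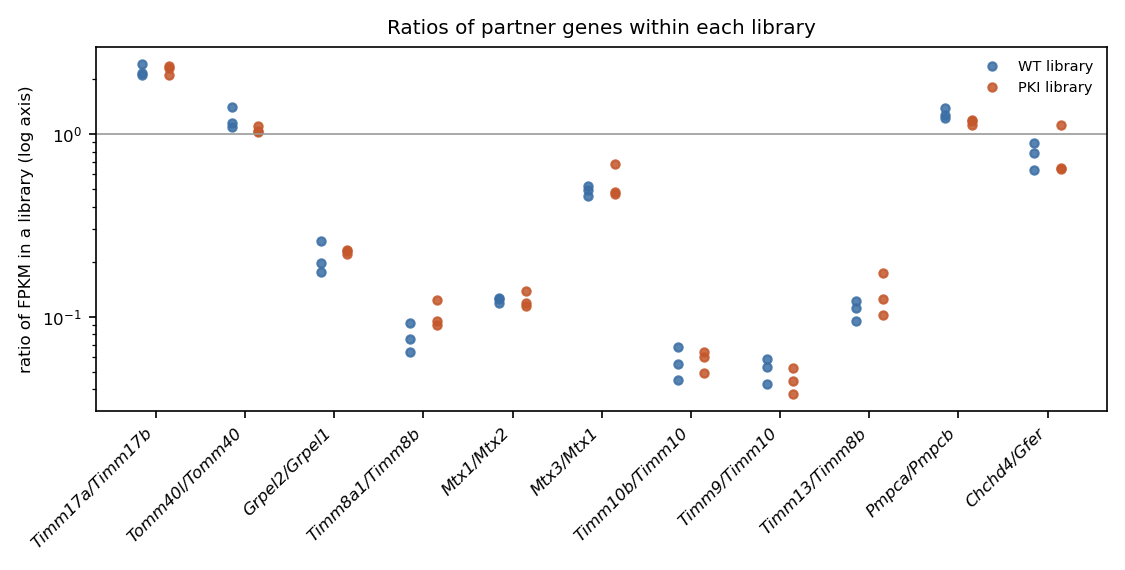
Ratio of the FPKM of 2 partner genes within each WT (blue) and PKI (orange) library (log axis), with a line at a ratio of 1. Only Pmpca/Pmpcb has all PKI points below all WT points, and Timm17a/Timm17b stays between 2.11 and 2.43 in all 6 libraries.

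Genes that work beside these complexes were taken from 5 lists of 32 genes, of which 31 were tested and Agk lay under the minimum. As deposited 10 were called higher (32.3%) and 1 lower (3.23%), beside 36.4% and 2.96% of all tested genes. After scaling 2 were called higher and 11 lower (35.5%), beside 7.82% and 9.18%. With the total without mitochondrial transcripts 2 were called higher and 3 lower (9.68%), beside 10.3% and 6.09%, and the 3 were Immp2l, Mipep and Vdac1. The median log2 change was 0.14 as deposited and -0.16 after scaling. The 10 called higher became 9, 6 and 5 without WT1, WT2 and WT3, and 6, 8 and 5 without PKI1, PKI2 and PKI3. Over these fits the 3609 of all tested genes called higher became 2179 to 3162.

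Cytosolic chaperones that hand precursors to TOM were called higher in 5 of 5 cases as deposited and in 2 of 5 after scaling. Among all tested genes these shares were 36.4% and 7.82%, and the list was chosen with earlier results of these data known. Hsp90aa1, the stress-inducible HSP90 that docks on Tomm70a, was at 16, 12.1 and 9.95 FPKM in WT and 38.8, 38.3 and 35.1 FPKM in PKI. The groups were far apart, at a ratio of means of 2.95, and the log2 change was 1.51 (SE 0.15, limma adjusted p = 0.000989; 1.23 after scaling, limma adjusted p = 0.00231). Dnaja1, a J-protein partner of cytosolic HSP70, was at 3.01, 2.90 and 2.95 FPKM in WT and 9.04, 5.12 and 9.10 FPKM in PKI, with PKI2 lower than the other PKI libraries. It rose by 1.11 on the log2 scale (limma adjusted p = 0.00565; 0.87 after scaling, limma adjusted p = 0.0231). Hsp90ab1, the constitutive HSP90, rose as deposited (log2 change 0.48, limma adjusted p = 0.0117; 0.18 after scaling), as did the constitutive HSP70 gene Hspa8 (0.55, limma adjusted p = 0.0172; 0.26 after scaling). Dnaja2, another J-protein, rose by 0.19 as deposited (limma adjusted p = 0.0401) and stood at -0.11 after scaling.

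Among 5 other presequence and intermembrane space peptidases, 0 were called higher and 1 lower as deposited, beside 36.4% and 2.96% of all tested genes. Immp2l, a subunit of the inner membrane peptidase, was at 3.03, 3.60 and 3.90 FPKM in WT and 1.02, 1.41 and 0.830 FPKM in PKI. Every PKI library was far below every WT library, at a ratio of WT to PKI means of 3.23. It fell by 1.12 on the log2 scale as deposited (SE 0.12, limma adjusted p = 0.00135) and by 1.31 after scaling (limma adjusted p = 0.00134). Mipep, which trims precursors after MPP, had a log2 change of -0.10 as deposited (limma adjusted p = 0.359) and fell by 0.37 after scaling (limma adjusted p = 0.0302). Immp1l, the partner subunit of Immp2l, and Pitrm1, which degrades cleaved presequences, had log2 changes of -0.09 and -0.03 as deposited and fell by 0.38 and 0.30 after scaling (limma adjusted p = 0.0147 and 0.0398). Xpnpep3 had a log2 change of -0.27 as deposited (limma adjusted p = 0.168) and of -0.43 after scaling (limma adjusted p = 0.0765).

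Of 10 other motor and translocase genes, 3 were called higher as deposited and 0 after scaling, beside 36.4% and 7.82% of all tested genes. They were Mtch1, an outer membrane insertase-like protein (log2 change 0.42, limma adjusted p = 0.00981), Dnlz, which keeps mitochondrial HSP70 soluble (0.32, limma adjusted p = 0.0426), and Aifm1, which binds Chchd4 (0.19, limma adjusted p = 0.0482; -0.09 after scaling). Hspa9, the mitochondrial HSP70 that drives the motor, was at 146, 137 and 132 FPKM in WT and 144, 151 and 149 FPKM in PKI. Its groups overlapped (log2 change 0.10, limma adjusted p = 0.198), and it fell by 0.20 after scaling (limma adjusted p = 0.0447). Oxa1l, the insertase for proteins leaving the matrix, went from -0.02 as deposited to a fall of 0.30 after scaling (limma adjusted p = 0.0374).

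The MICOS and bridging list, which shapes cristae and ties them to SAM, had 1 of 8 genes called higher as deposited, beside 36.4% of all tested genes. It was Dnajc11 (log2 change 0.26, limma adjusted p = 0.0255), which stood at 0.04 after scaling. The next smallest p-values were those of 2410015M20Rik and Chchd3. Their log2 changes were 0.16 and 0.14 as deposited (limma adjusted p = 0.146 and 0.176) and -0.14 and -0.16 after scaling. After scaling 3 were called lower, beside 9.18% of all tested genes: Immt, the core of MICOS (-0.37, limma adjusted p = 0.0338), Apoo (-0.25, limma adjusted p = 0.0306) and Apool (-0.30, limma adjusted p = 0.0474). None of these 3 was called with the total without mitochondrial transcripts (limma adjusted p = 0.102, 0.143 and 0.128). Of the VDAC channels, beta-barrels inserted through SAM, Vdac2 was at 33.6, 34.1 and 34.2 FPKM in WT and 41.6 FPKM in each PKI library and rose (log2 change 0.28, limma adjusted p = 0.00695), standing at -0.01 after scaling. Vdac1, the most abundant, was at 171, 182 and 167 FPKM in WT and 173, 174 and 165 FPKM in PKI (log2 change -0.02, limma adjusted p = 0.791), and fell by 0.32 after scaling (limma adjusted p = 0.0100). Vdac3 turned from 0.05 as deposited (limma adjusted p = 0.482) to -0.24 after scaling (limma adjusted p = 0.0337).

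**Figure D5:**
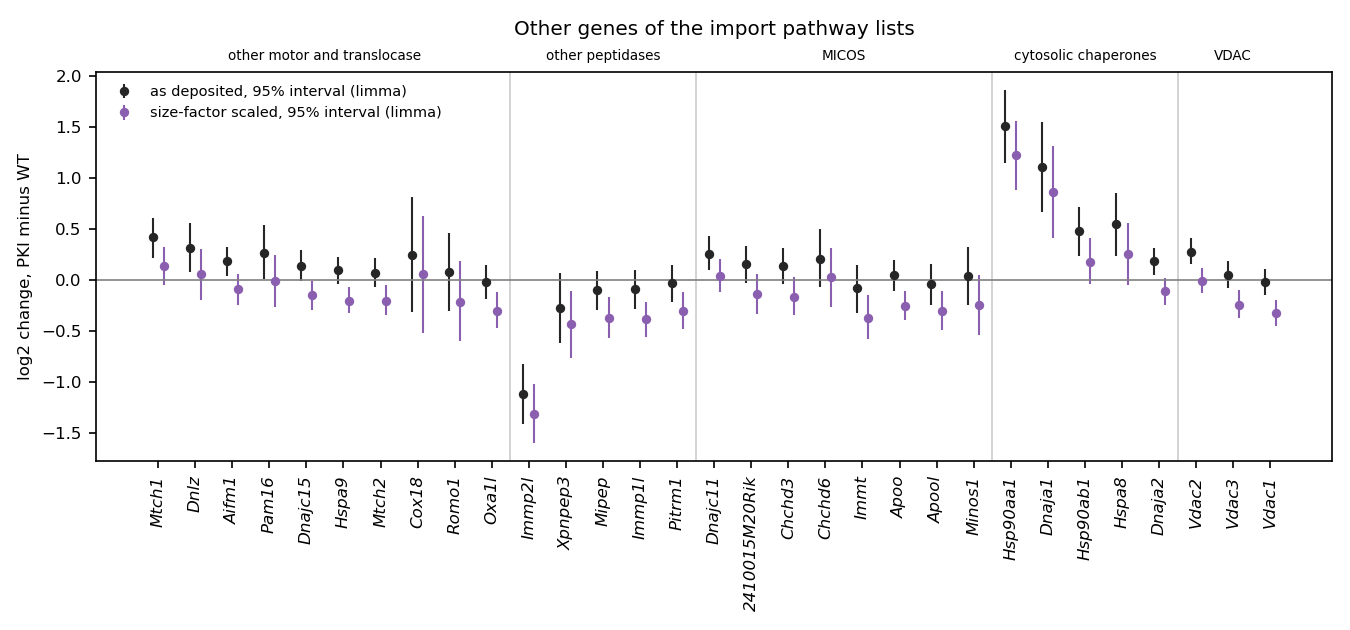
Log2 change (PKI minus WT, on log2(FPKM + 1)) of the 31 tested genes of 5 neighbouring lists, with 95% intervals from limma, as deposited (black) and after size-factor scaling (purple). Hsp90aa1 (1.51 and 1.23) and Dnaja1 (1.11 and 0.87) lie highest and Immp2l (-1.12 and -1.31) lowest in both.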

How the data were processed

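RNA was isolated with Trizol from frozen hearts and 1 µg of total RNA went into each TruSeq library, per the labels' protocols. The deposited values are FPKM per gene, in 2 tables with identical values, and were used as the authors gave them. CASAVA, Bowtie 0.12.2 and mm9 are named in the submitters' processing notes with no role, and which program, annotation and filters made the FPKM is not given in the sources used here. Groups came from the sample titles. Library FPKM totals were 708058 to 767757, Pearson's r over genes was at least 0.982 within and at most 0.974 between groups, and depth is unknown.

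Genes averaging 1 FPKM or more (9907 of the 24705 above 0) were tested on log2(FPKM + 1), which understates changes of low genes, with limma 3.58.1 (R 4.3.3, variance trend, two-sided). Benjamini-Hochberg adjustment ran over all tested genes, with calls at 0.05. The fit was tested on simulated data without a library-wide shift, so that test does not cover the shift between the groups seen here. Ratios of means are of FPKM. Partner ratios were tested by exact permutation over 20 arrangements (Python 3.11.15), with figures drawn in matplotlib 3.10.9. Size factors were medians of ratios over genes above 0 in every library. Alternatives were 2 scalings, a pseudocount of 0.1, no filter, a minimum of 5 FPKM, the replicate number as a block, and each library left out.

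Positions come from GENCODE M21 (GRCm38), matched on the gene identifier (52403 of the 52550 are in it, 99.72%), and were not converted. Promoters are from RefSeq. Named in full were the import genes called in either scaling, the smallest p of each complex and a core gene of each, and for the neighbouring lists the 3 smallest p-values of each. Hspa9 and the other neighbouring genes called in either scaling were added after their values were seen. The import genes, lists and pairs were chosen with earlier results of these data known.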

Additional observations from a re-analysis of the deposited data

How the results depend on the processing

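The 11 import genes called higher as deposited became 0 with size factors, 0 with the total without mitochondrial transcripts, 3 with no filter, 7 with a minimum mean of 5 FPKM, 3 with the replicate number as a block (replicate block) and 2 to 7 with a library left out. The deviations of same-numbered libraries correlated at -0.104, 0.001 and 0.053, and not every library correlated best with its own number, so the numbers were not taken as pairs. At the minimum of 5 FPKM, Tomm34, Tomm6, Chchd4, Gfer and Timm10b are not tested, and Tomm7 is called (limma adjusted p = 0.045). Import genes called lower went from 0 to 5 with size factors and to 1 with the other total. Neighbouring genes called higher went from 10 to 2 with either scaling, 5 with no filter, 6 under the replicate block and 5 to 9 with a library left out. Those called lower went from 1 to 11 and 3 with the scalings and to 0 at a minimum of 5 FPKM, where Immp2l is not tested. All tested genes called higher went from 3609 to 775 with size factors and 1019 with the other total. They were 2746 with no filter, where 24705 genes are tested, 2625 under the replicate block and 1739 at a minimum of 5 FPKM. With a library left out they were 2179 to 3162. Those called lower went from 293 to 909 and 603 with the scalings, 231 with no filter and 224 under the replicate block. They were 186 at a minimum of 5 FPKM and 165 to 263 with a library left out. Ppargc1a went from -0.16 to -0.44 and -0.36 with the scalings and stayed between -0.20 and -0.11 with a library left out.

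The log2 change turned from above to below 0 with size factors in 20 import genes: Timm44 and Hspa9 (a neighbour) at -0.20, Tomm40 and Timm50 at -0.15, Tomm34 and Tomm20 at -0.01, Timm22 and Mtx1 at -0.08, Samm50 at -0.26, Tomm70a and Grpel2 at -0.07, Timm21 at -0.22, Pmpca and Grpel1 at -0.21, Mtx2 at -0.10, Dnajc19 and Timm17a at -0.05, Pmpcb and Timm17b at -0.06, Timm8b at -0.24 and Timm29 at -0.25. Counting Hspa9, 13 neighbouring genes turned: Vdac3 to -0.24, Vdac2 to -0.01, Aifm1 to -0.09, Dnaja2 to -0.11, Apoo to -0.25, 2410015M20Rik to -0.14, Chchd3 to -0.16, Pam16 to -0.01, Dnajc15 to -0.15, Mtch2 to -0.20, Romo1 to -0.21 and Minos1 to -0.24. With the total without mitochondrial transcripts 13 import genes turned: Timm44 to -0.12, Tomm40 and Timm50 to -0.07, Timm22, Mtx1 and Mtx2 to -0.02, Samm50 and Timm29 to -0.17, Grpel2 to just under 0 (-0.00), Timm21 to -0.14, Pmpca and Grpel1 to -0.13 and Timm8b to -0.16. There 11 neighbouring genes turned: Vdac3 to -0.15, Hspa9 to -0.11, Aifm1 to -0.01, Dnaja2 to -0.02, Apoo to -0.16, 2410015M20Rik to -0.05, Chchd3 and Dnajc15 to -0.07, Mtch2 and Romo1 to -0.12 and Minos1 to -0.16. With a library left out the sign turned in Timm44 (-0.01 to 0.14), Timm23 (-0.04 to 0.03), Timm8b (-0.01 to 0.08), Tomm5 (-0.07 to 1.05), Vdac1 (-0.05 to 0.02), Oxa1l (-0.05 to 0.04), Pitrm1 (-0.08 to 0.01), Apool (-0.09 to 0.02), Immt (-0.15 to 0.02), Minos1 (-0.08 to 0.11) and Romo1 (-0.05 to 0.23). A pseudocount of 0.1 changed no call of an import gene or of the neighbouring genes named here. Genes under a mean of 5 FPKM have no value at that minimum. The scalings change values by construction, and other causes of these shifts were not tested. The depth is unknown, so its limit on low genes such as Mtx3 cannot be stated.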
